A study of Bos taurus with 10 samples.

Results

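The initiation and elongation factors of protein synthesis were described in the longissimus dorsi, the long back muscle, of Hanwoo, the native beef breed of Korea. Members were the genes whose only listed symbol for a probe set begins with EIF or EEF followed by a number, leaving out EIF1AX and EIF2S3. This rule found 48 genes of the 9155 named on the array, read by 64 probe sets outside the array's own controls. A probe set is a group of short probes against 1 transcript, and 15 of the 48 genes had several, of which the brightest stands for the gene. The rule selects by symbol and not by function, so it also takes in kinases and repressors that act on these factors, and 5 genes with other roles: EIF4A3, EIF1AD, EEF1E1 and the methyltransferases EEF1AKMT3 and EEF2KMT.

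The study measured poly(A) RNA of 10 samples on 10 Affymetrix bovine arrays and aimed to correlate it with traits of the beef, which were not used here. All samples form 1 group with no treatment, and they are numbered 1 to 10 and called animals below. An age of about 2 years, the breed and the muscle are stated for animal 1, and the labels of the other animals give skeletal muscle. Nothing but the numbering says that the samples are separate cattle, so a test below measures the spread between these samples.

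In translation initiation, eIF2 with GTP brings the initiator tRNA to the small ribosomal subunit, eIF1 and eIF5 take part in choosing the start codon, and eIF3 forms a scaffold on that subunit. The mRNA is recruited through its cap by eIF4E, through the scaffold protein eIF4G and through the helicase eIF4A, and the 4E-BP proteins bind eIF4E and block this step when mTORC1, the growth-signalling kinase complex, is inactive. In elongation eEF1A delivers aminoacyl-tRNA, eEF1B recharges it with GTP and eEF2 moves the ribosome along, and adult muscle is known for the isoform eEF1A2. Much of the control of these proteins is by phosphorylation, which arrays of RNA do not show.

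Signals are given as log2(intensity + 16) after quantile normalization, and ± is the SD over the 10 animals. Tests were limited to genes with a mean over 6.98, which is the median level of the non-control probe sets. This left 44 of the 48 members (91.7%), against 6271 of all 9155 genes (68.5%). The 4 members below it were EIF2AK2 at 6.73 ± 0.67, EIF2AK3 at 5.93 ± 0.76, EEF1AKMT3 at 5.54 ± 0.78 and EEF2KMT at 5.50 ± 0.65. The first pair encodes the eIF2 kinases PKR and PERK, which act in the responses to double-stranded RNA and to unfolded protein. The probe sets differ in how brightly they report a transcript, so a mean is a property of the probe set as well as of the gene, and no order of abundance between genes follows.

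The tissue label was set against marker genes. All 9 measured skeletal muscle markers of 11 listed were above the filter with means between 15.22 and 15.90, and their mean per animal lay between 15.51 and 15.61. Of the other cell types, 4 of 5 measured adipocyte markers, 5 of 5 of connective tissue cells, 2 of 3 of endothelium, 4 of 4 of leukocytes, 1 of 3 of red cells and 3 of 4 of liver were above it. The mean of the adipocyte markers ran from 7.47 to 10.23 between animals, that of connective tissue cells from 10.07 to 12.68, that of leukocytes from 6.78 to 8.60 and that of the liver genes from 6.24 to 10.96. In a piece of muscle, fewer cells of a type and less RNA per cell cannot be told apart.

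Animal 5 stood apart on the array's quality controls. Poly(A) control RNAs are added to each sample, and the excess of their 3' over their 5' signal is large when 5' ends are under-represented. This difference was 2.80 for animal 5, against a range of 1.09 to 1.38 for all others. Results that rest on this animal are given with and without it. The deposited medians of the arrays lay between 111 and 134, a span of 0.24 on the log2 scale, and the 3 highest belonged to animals 1, 6 and 10.

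Most translation factors were read by bright probe sets. The median mean level of the 44 tested members was 11.32, against 9.24 over all tested genes, and 20 of the 44 (45.5%) lay above 12.19, the level that 10% of all tested genes exceed. The 5 members with the highest means were EIF1 at 15.05 ± 0.13, EEF1G at 14.83 ± 0.13, EIF4A2 at 14.71 ± 0.21, EEF2 at 14.29 ± 0.31 and EEF1B2 at 14.02 ± 0.25. The first is a start codon factor and the fourth the translocase of elongation.

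The spread of the members between animals was small for most, and smaller still without animal 5. Their median SD was 0.31, against 0.36 over all tested genes, and without animal 5 these were 0.22 and 0.31. An SD over 0.5 was reached by 4 of the 44 members, beside 22.1% of all tested genes. These 4 were EEF1A2 with an SD of 1.16, EEF1A1 with 0.68, EIF3I with 0.55 and EIF2A with 0.52. Only EEF1A2 of the 44 stayed over 0.5 without animal 5. The next 4 in order of SD were EIF5 with 0.50, EIF4H with 0.49, EIF4E3 with 0.42 and EIF3E with 0.41.

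Bright genes vary less on this array, so the members were set beside genes of the same level. Above 13 the median SD was 0.26 for 10 members and 0.27 for all 367 genes. Between 11 and 13 it was 0.28 for 18 members and 0.33 for 956 genes. Between 9 and 11 it was 0.28 for 10 members and 0.33 for 2152 genes, and from the filter to 9 it was 0.37 for 6 members and 0.40 for 2796 genes. The members' median was thus the lower in each of these bands, and without animal 5 it was again the lower in each.

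**Figure D1:**
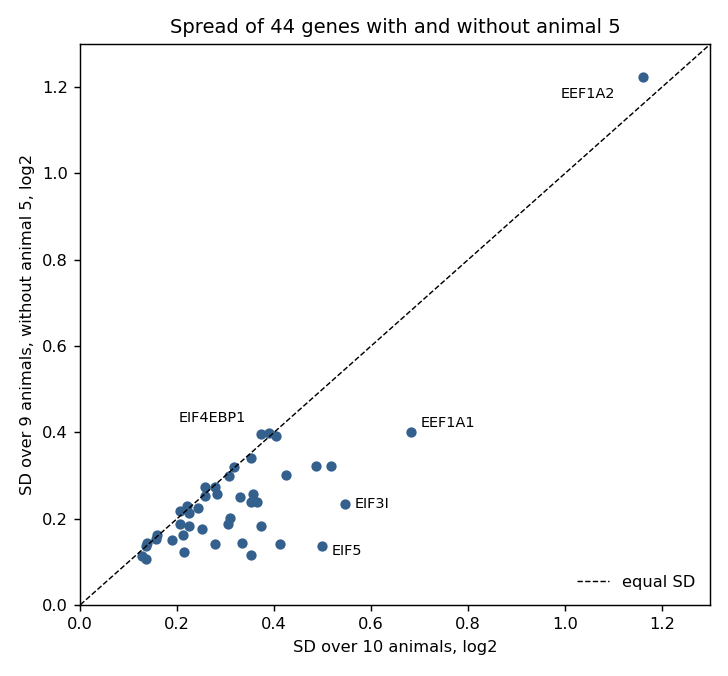
SD of the log2 signal of each of the 44 tested genes over 10 animals (horizontal axis) against its SD over 9 animals without animal 5 (vertical axis), 1 point per gene, with the dashed line marking equal values. EEF1A2 lies alone at 1.16 and 1.22, while EEF1A1, EIF3I and EIF5 fall well below the line.

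The start codon factors were EIF1, EIF1B and EIF5. EIF1, which keeps the scanning ribosome from starting at the wrong codon, had values from 14.85 to 15.27 around a median of 15.04. Its near relative EIF1B had values from 10.67 to 11.40 around a median of 11.09. EIF5, the GTPase activator that releases eIF2 once a start codon is found, had a lowest value of 12.23, a median of 13.79 and a highest value of 13.90. Its lowest value was that of animal 5, and the other 9 lay between 13.45 and 13.90. Its SD was 0.50 over 10 animals and 0.14 without animal 5. A second EIF5 probe set was also low in that animal, at -1.72 from the mean of the other 9, where the brightest was at -1.53.

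Among the genes of eIF2 and its exchange factor eIF2B, the tested members were EIF2S1, the alpha subunit of eIF2 that stress kinases phosphorylate, the eIF2B subunits EIF2B1, EIF2B2, EIF2B3 and EIF2B4, and the heme-regulated kinase EIF2AK1. EIF2S1 ran from 10.10 to 11.45 with a median of 10.66, highest in animal 5, and its SD fell from 0.36 to 0.26 when that animal was left out. The 4 subunits of eIF2B had SDs between 0.20 and 0.39. EIF2B3 was the widest of them, from 7.92 to 9.14 with a median of 8.69, and its second probe set did not follow it across animals (r = -0.04, n = 10, a description). EIF2B4 was narrow except for animal 6, which lay at 10.15 below a median of 10.70. EIF2AK1 lay at 8.68 ± 0.32.

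The other initiation factors were EIF2A, a protein distinct from the alpha subunit of eIF2, EIF2D, which can also deliver initiator tRNA, and EIF6, which keeps the ribosomal subunits apart. EIF2A ran from 8.27 to 10.10 with a median of 8.89. The highest value was that of animal 5 and the next was 9.17, in animal 8. Without animal 5 the SD of EIF2A was 0.32. EIF2D lay at 8.79 ± 0.35 and EIF6 at 10.93 ± 0.20, with animal 5 at -0.46 and -0.33 from the mean of the others.

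The 12 measured genes of eIF3, the largest initiation complex, divided in animal 5. There 7 of them had their lowest value and 3 their highest, beside 27.6% and 21.1% of all tested genes. Their deviations from the mean of the other 9 animals lay between -1.58 and 0.77. Their median SD was 0.26 with animal 5 and 0.15 without it. EIF3I, a subunit with a propeller fold, ran from 11.21 to 13.24 with a median of 12.73. Animal 5 held the lowest value and the other 9 began at 12.46, so its SD fell from 0.55 to 0.23.

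EIF3E had a lowest value of 11.91 in animal 5, a median of 13.13 and a highest value of 13.45 in animal 3. Without animal 5 its SD went from 0.41 to 0.14. EIF3K at 12.02, EIF3J at 12.39 and EIF3H at 12.06 were also lowest in animal 5. The other 9 ran from 12.73 to 13.14 for EIF3K, from 12.90 to 13.33 for EIF3J and from 12.47 to 12.86 for EIF3H. EIF3M at 12.26 and EIF3D at 11.15 were lowest in animal 5 by a small margin, since the other 9 began at 12.33 and 11.20. EIF3CL, at 12.99 against 11.97 to 12.50, and EIF3A, the large subunit of the complex's core, at 12.95 against 11.84 to 12.61, were highest there.

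Several eIF3 genes were steady with animal 5 included. EIF3G, an RNA-binding subunit, had the smallest SD of all 44 members with 12.68 ± 0.13, from 12.45 to 12.87 with a median of 12.73. Its highest value was that of animal 5, and the other 9 reached 12.79. EIF3B, the scaffold subunit, was next within eIF3 with 11.07 ± 0.14, from 10.94 to 11.39 with a median of 11.06, its highest value being that of animal 3. A second EIF3B probe set lay at -0.86 from the mean of the others in animal 5, where the brightest lay at 0.09. EIF3L at 12.44 ± 0.16 was similarly narrow.

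Genes of cap binding and of the eIF4 group had a median SD of 0.37, or 0.26 without animal 5. EIF4E, the cap-binding protein, ran from 10.39 in animal 10 to 11.81 in animal 5 with a median of 11.02. EIF4E3, a related cap-binding protein, ran from 9.84 to 11.27 with a median of 10.33, again highest in animal 5. EIF4E2, known as a repressor homologue of eIF4E, was narrower at 9.34 ± 0.22.

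EIF4EBP1, the best known repressor of eIF4E, was among the members whose spread did not depend on animal 5. It ran from 10.46 to 11.73 with a median of 11.13, an SD of 0.37 over all 10 and of 0.39 without that animal. Animals 1 at 11.73 and 10 at 11.66 were high and animals 6 at 10.46 and 9 at 10.79 were low. Its highest and lowest animals differed 2.41-fold on this scale.

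The helicase of the cap complex has a pair of isoform genes. EIF4A1 ran from 9.64 to 10.77 with a median of 10.07, with 4 animals high: 1 at 10.77, 5 at 10.69, 6 at 10.62 and 10 at 10.56. The other 6 lay at 10.08 or below. EIF4A2, the form that is abundant in muscle, ran from 14.46 to 15.13 with a median of 14.67, highest in animal 5. The helper proteins of the helicase went opposite ways in animal 5, where EIF4B was highest at 13.27 against 11.91 to 12.66 and EIF4H lowest at 11.42 against 12.13 to 13.14. The scaffold genes were EIF4G1, at 11.10 ± 0.26 with animal 5 close to the mean, and EIF4G3, with animal 5 at 10.08 against 10.72 to 11.32.

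Of the elongation genes, the pair of eEF1A isoforms had the 2 largest SDs of all members. EEF1A2, the isoform of muscle, heart and neurons, ran from 7.10 to 10.39 with a median of 9.05, a 9.79-fold range on this scale. Animals 6 at 10.39, 1 at 10.23, 10 at 9.99, 4 at 9.71 and 9 at 9.48 were high, and animals 2 at 7.10, 8 at 7.56 and 3 at 8.08 were low. The values formed a gradient with no animal apart from the rest, and animal 5 at 8.61 was inside the range. Its SD was 1.16 with animal 5 and 1.22 without it, between 1.04 and 1.21 under the other settings tried, and larger than that of 99.4% of tested genes. The array has 1 probe set for EEF1A2, so no second one bears on this spread.

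EEF1A1, the isoform that most other tissues use, ran from 11.80 to 14.19 with a median of 13.46. Animal 5 was lowest and the other 9 began at 13.001. Its SD without animal 5 was 0.40, which was still the second largest of the 7 elongation genes.

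EEF2 had a lowest value of 13.94, a median of 14.21 and a highest value of 14.9999. Animal 5 was highest, followed by animal 10 at 14.60, and the other 8 lay at 14.34 or below. Its SD was 0.31, or 0.19 without animal 5. EEF2K, the kinase that switches eEF2 off, lay at 11.90 ± 0.22, from 11.42 to 12.18 with a median of 11.94. The exchange factor genes were narrow after quantile normalization. Under the other settings tried their SD reached 0.30 for EEF1G, 0.22 for EEF1D and 0.26 for EEF1B2. EEF1G ran from 14.57 to 14.98 with a median of 14.82, EEF1D from 13.44 to 13.88 with a median of 13.77, and EEF1B2 from 13.72 to 14.55 with a median of 13.97.

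**Figure D2:**
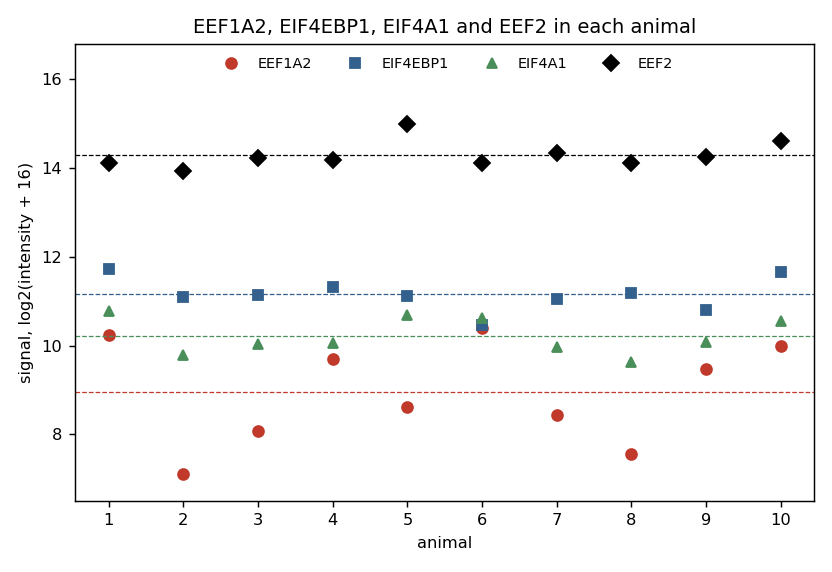
Signal as log2(intensity + 16) (vertical axis) of EEF1A2, EIF4EBP1, EIF4A1 and EEF2 in each of the 10 animals (horizontal axis), with a dashed line at each gene's mean. EEF1A2 spans 7.10 to 10.39 with animals 1, 6 and 10 at its top, while EEF2 stays between 13.94 and 14.60 except for 14.9999 in animal 5.

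Of the 5 genes with other roles 3 were tested. EIF4A3, a helicase of the exon junction complex that is deposited at splicing, ran from 9.04 in animal 5 to 10.31 with a median of 10.06. Its SD was 0.35, and 0.12 without animal 5. EEF1E1, a scaffold of the multi-synthetase complex, lay at 9.86 ± 0.28 and EIF1AD at 8.39 ± 0.31.

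Counted over all 44 tested members, animal 5 had the lowest value for 17 (38.6%) and the highest for 13 (29.5%). Over all tested genes it was lowest for 27.6% and highest for 21.1%. It stood apart from the other 9 by Dixon's 95% value for 11 members (25%), beside 11.9% of all tested genes. Any animal did so for 13 of the 44 members, beside 16.7% of all tested genes. On the deposited scaling animal 5 was lowest for 17 and highest for 10 members, and after median centring for 15 and 13.

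**Figure D3:**
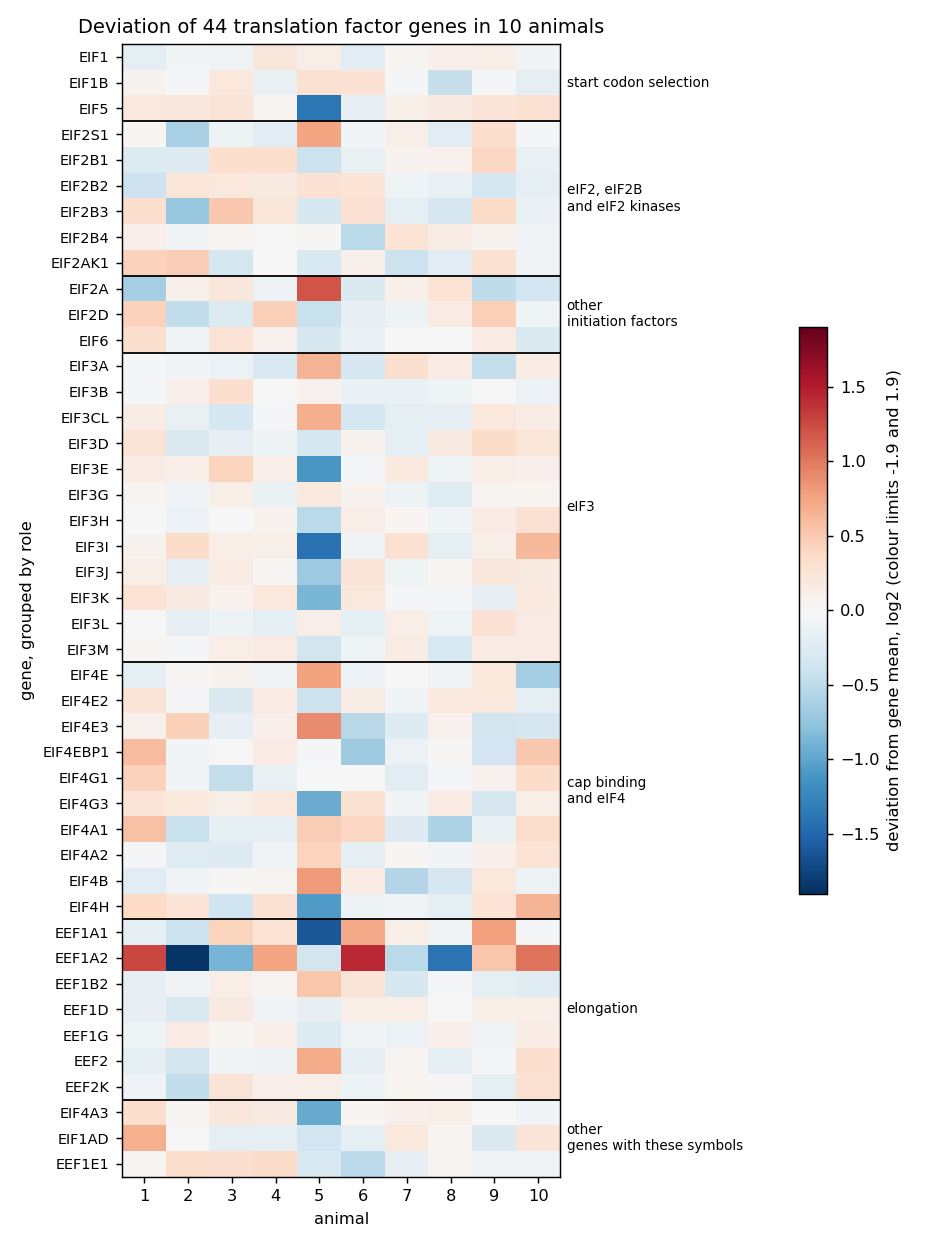
Deviation of each of 44 genes (vertical axis, grouped by role) from its own mean over the 10 animals (horizontal axis), in log2 units, red above and blue below the mean. The column of animal 5 holds most of the strong colours in both directions, and EEF1A2 is the gene that varies strongly in the other columns.

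For EEF1A1 and EIF4E the array carries control probe sets at the 5' end, the middle and the 3' end of the transcript, 6 in all, which show where along a transcript animal 5 differed. These controls are on the deposited scaling, since they were left out of the normalization. For EEF1A1, animal 5 minus the mean of the other 9 was -2.44 at the 5' control, -0.57 at the middle one and -0.18 at the 3' one. The brightest EEF1A1 set, which stands for the gene, differed by -1.79 in animal 5, while a second set differed by -0.25. The value of EEF1A1 in animal 5 therefore differed by probe set: the brightest set went with the 5' control and the second with the 3' control.

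For EIF4E the 5' control differed by -1.52 in animal 5, the middle one by -0.21 and the 3' one was higher by 0.78. The set that stands for EIF4E was higher by 0.85, close to the 3' control. The 3' minus 5' difference of EIF4E was 5.79 in animal 5 and from 2.78 to 3.90 in the other 9, and that of EEF1A1 was -0.48 against -3.18 to -2.05. In both genes animal 5 lay outside the range of the others, in the direction of a weaker 5' signal. What part this had in the other members' values in animal 5 was not tested.

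**Figure D4:**
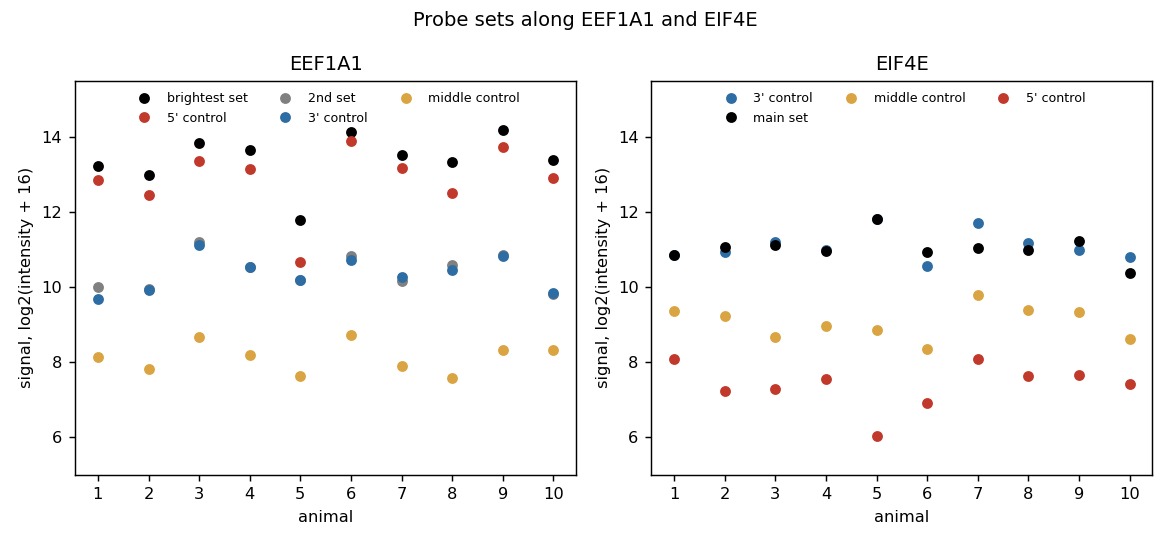
Signal as log2(intensity + 16) (vertical axis) of every probe set of EEF1A1 (left) and EIF4E (right) in the 10 animals (horizontal axis), coloured by probe set. In animal 5 the 5' control sets of both genes are at their lowest, 10.69 and 6.02, while the 3' control set of EIF4E is at its highest, 11.81.

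Other members with more than 1 probe set showed both situations. In EIF4G3 both sets were low in animal 5, at -1.05 and -1.06 from the mean of the others, and in EIF4E3 both were high, at 0.998 and 0.71. In EIF4A3 the brightest set was at -1.06 and the second at -0.22, and in EIF2AK1 these were -0.32 and -1.45. Across animals the second set of EIF4H followed the brightest with r = 0.94 (0.84 without animal 5), that of EIF5 with 0.92 (0.61), that of EIF4G3 with 0.89 (0.56) and that of EEF2K with 0.72 (0.86). For EEF1A1 it was 0.57 (0.78), for EIF4E3 0.35 (-0.02), for EIF2AK1 0.34 (0.15), for EIF4A3 0.29 (0.05), for EIF3B 0.21 (0.62), for EIF4E2 0.16 (0.15) and for EIF1, with its narrow range, 0.02 (-0.14). The second sets of EIF2A and EIF3A and the third of EIF4H were below the filter, with r of -0.52, 0.19 and -0.43. In animal 5 the dim EIF2A set was at -0.37, where the one that stands for the gene was at 1.33, and the dim EIF4H set was at 1.39. These r values describe 10 animals, and the sets share each animal's RNA and array.

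The members were then fitted against scores of other gene groups, with limma over all tested genes and the Benjamini-Hochberg adjustment at 0.05. A score is the mean deviation of a group's tested genes in an animal, and a slope is the log2 change per SD of the score. Beside each score, a share of all tested genes leaves out the genes that make up that score. Against the score of 60 ribosomal protein genes, 9 of the 44 members rose, beside 9.48% of all tested genes, and 2 of the 44 fell, beside 3.75%. These shares are of 6211 genes. An unadjusted p under 0.05 was found for 19 members (43.2%) and for 28.4% of all tested genes. The genes that rose were EEF1A1, EIF3I, EIF5, EIF3E, EIF4H, EIF4G3, EIF4A3, EIF3K and EIF3J, with slopes from 0.56 down to 0.25. EIF2A fell with a slope of -0.41 and EEF2 with a slope of -0.25. Among the members that rose, the limma adjusted p was 0.00326 for EIF5, 0.00481 for EIF3E, 0.00617 for EIF3I and 0.0129 for EEF1A1, and for EIF2A and EEF2 it was 0.0288 and 0.0479.

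These slopes rested on animal 5. The ribosomal protein score was -0.88 in that animal and between -0.07 and 0.21 in the others, and this is the animal whose poly(A) control difference was 2.80. Without animal 5, 0 of the 44 members and 0 of the 6215 tested genes outside the score passed the limma test. At an unadjusted p under 0.05 there were 0 members and 203 of those genes. Of the 11 members, 10 kept the sign of their slope and EIF5 turned to -0.01. After median centring 2 of the 44 members rose and 3 of the 44 fell, beside 2.64% and 2.75% of all tested genes. Of the 11 members 3 still passed and all 11 kept their sign.

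**Figure D5:**
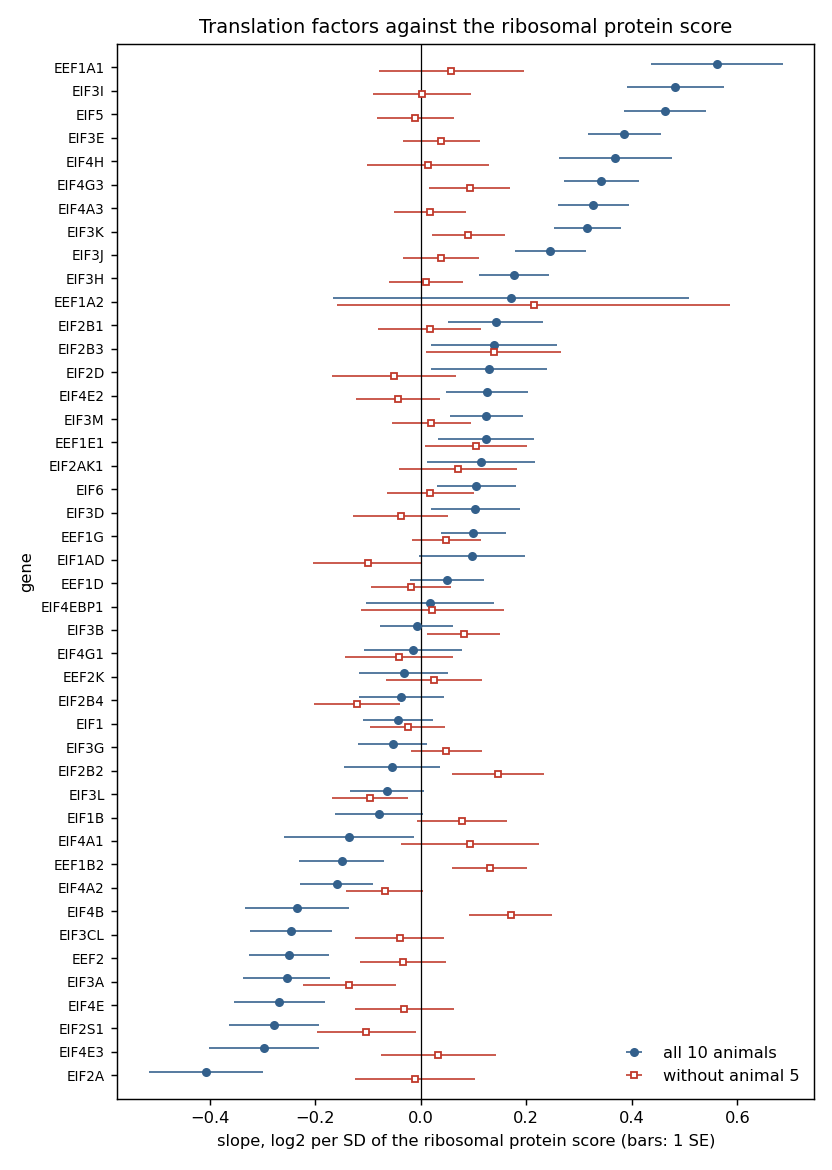
Slope of each of 44 genes (vertical axis) in log2 per SD of the ribosomal protein score (horizontal axis), with bars of 1 SE, over all 10 animals (filled) and without animal 5 (open). The filled points run from -0.41 for EIF2A to 0.56 for EEF1A1, while the open points lie nearer to 0 for the 11 genes that passed the test.

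The poly(A) control difference itself, a measure of the array and not of the muscle, was fitted in the same way. Here 3 of the 44 members rose, beside 4.35% of all tested genes, and 9 of the 44 fell, beside 11.1%. An unadjusted p under 0.05 was found for 20 members (45.5%) and for 29.6% of all tested genes. EEF1A1 fell with a slope of -0.57, EIF3I with -0.49, EIF5 with -0.48 and EIF3E with -0.39, and EIF4H, EIF4A3, EIF4G3, EIF3K and EIF3J fell with slopes from -0.36 to -0.24. EIF2A rose with a slope of 0.39, and EEF2 and EIF3CL each with 0.25. This fit shares its 10 arrays with the one on ribosomal protein genes and is no independent result. Without animal 5 it called 0 members by limma, with 1 member and 5.18% of all genes at an unadjusted p under 0.05. Of the 12 members 8 then kept the sign of their slope, while EIF3I, EIF3J, EIF4H and EIF2A turned. Without animal 4 the fit called 7.

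The next score was that of integrated stress response targets, the genes switched on when eIF2 is phosphorylated. Against it 3 of the 44 members rose, beside 2.83% of all tested genes, and 1 of the 44 fell, beside 1.58%. An unadjusted p under 0.05 was found for 15 members (34.1%) and for 25.9% of all tested genes. EIF3I rose with a slope of 0.50 (limma adjusted p = 0.0301), EIF4H with 0.42 (0.0356) and EIF5 with 0.42 (0.0395), and EIF2A fell with -0.43 (0.0412). Of the 14 tested genes that make up this score 1, the transcription factor ATF4, rose with the score of the others. The stress response score was -0.45 in animal 5 and between -0.10 and 0.21 in the others. Without animal 5 the fit called 0 members and 0 of all genes by limma, with 0 members and 297 genes at an unadjusted p under 0.05. The count of 4 was 1 without animal 2, 8 or 9, 2 without animal 10 and 0 after median centring.

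No member passed against the remaining scores. Against the atrophy score, of genes that FOXO factors switch on in wasting muscle, 0 members passed by limma, beside 0% of all genes called in either direction. An unadjusted p under 0.05 was found for 1 member (2.27%) and for 2.78% of all tested genes. EIF4EBP1, known as a FOXO target, had a slope of 0.08 there. Against the adipocyte score 0 members passed by limma, beside 0.032% of genes that rose and 0% that fell. An unadjusted p under 0.05 was found for 4 members (9.09%) and for 7.08% of all tested genes. The smallest p was that of EEF1A1, with a slope of 0.49 and a limma adjusted p of 0.431.

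Against the connective tissue score 0 members passed by limma, beside 0.0959% of genes that rose and 0% that fell. An unadjusted p under 0.05 was found for 3 members (6.82%) and for 8.36% of all tested genes. EIF4EBP1 had a slope of -0.31 (limma adjusted p = 0.24) and EEF1A1 a slope of 0.48 (limma adjusted p = 0.296). Without animal 5, 0 members passed again by limma, and 3 had an unadjusted p under 0.05, beside 12.3% of all genes.

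The level of the hybridization controls, which are added to every array at a fixed amount, was not followed by any member past the test, beside 0% of all genes called in either direction. By limma 0 members passed, and 2 (4.55%) had an unadjusted p under 0.05, beside 4.66% of all tested genes. On the deposited scaling these were 6 members (13.6%) and 6.35% of genes, with 18 genes but 0 members called, and after median centring 5 members (11.4%) and 10.1% of genes. EIF4A1 had a slope of 0.34 (p = 0.00229, limma adjusted p = 0.994) and EEF1A2 a slope of 0.78 (p = 0.00939, limma adjusted p = 0.994). Animals 1, 6 and 10, which were high for both genes, had the 3 highest hybridization control levels, up to 13.14 where the next animal had 12.65, as well as the highest array medians. These controls were read on the deposited scaling. The part of this in the spread of EEF1A2 and EIF4A1 was not tested further.

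Of 13 listed pairs of members that work together or stand in for each other, 9 had both genes tested, and 0 passed a permutation test of r adjusted over the 9. EIF3E and EIF3H, both subunits of eIF3, had r = 0.79 (permutation p = 0.0511, adjusted p = 0.406) but rho = 0.21 (permutation p = 0.563). Without animals 3 and 5, those farthest from the median of EIF3E, r was 0.17, and without animal 5 alone it was -0.02, so the value rested on animal 5. EEF2 and its kinase EEF2K had r = 0.57 (permutation p = 0.0903, adjusted p = 0.406) and rho = 0.69 (permutation p = 0.0319, adjusted p = 0.287). Here r was 0.69 without animals 5 and 10 and 0.75 without animal 5 alone.

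EEF1A1 and EEF1A2 had r = 0.33 (permutation p = 0.365, adjusted p = 0.469) with rho = 0.32 (permutation p = 0.368). Their r was 0.44 without animals 5 and 9 and 0.45 without animal 5 alone. EIF4E and EIF4EBP1 had r = -0.40 (permutation p = 0.24, adjusted p = 0.432) with rho = -0.50 (permutation p = 0.144). Their r was -0.40 without animals 5 and 10 and -0.59 without animal 5 alone. The helicases EIF4A1 and EIF4A2 had r = 0.47 (permutation p = 0.174, adjusted p = 0.432) with rho = 0.44 (permutation p = 0.207). Their r was 0.33 without animals 1 and 5 and 0.29 without animal 5 alone. On the deposited scaling this last pair was the only one to pass, with r = 0.82 and an adjusted permutation p of 0.0349. The other 4 pairs, EEF1B2 with EEF1G, EEF1B2 with EEF1D, EIF4E with EIF4E2 and EIF1 with EIF5, had r between -0.43 and -0.22 with permutation p from 0.218 to 0.559. Without animal 5 all 4 turned positive, with r of 0.15, 0.08, 0.27 and 0.17 in that order.

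Between genes of the same complex the median r lay between -0.13 and 0.02 over the 10 animals, and between 0.12 and 0.13 without animal 5. The median r over the 66 pairs of eIF3 genes was 0.02, with 34 pairs above 0, and without animal 5 it was 0.13. For eIF2 with eIF2B it was -0.13 (0.12 without animal 5), for eIF4F with its inhibitors 0.01 (0.12) and for eEF1 -0.02 (0.12). Over all 946 pairs of tested members it was 0.04 (0.06), and over all pairs of tested genes it was 0.00 in either case. These medians are descriptions, since pairs share genes and arrays.

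Among neighbouring genes of the pathway, 21 of 30 listed genes of mTORC1 signalling were tested, with a median SD of 0.30. DDIT4, also called REDD1, an inhibitor of mTORC1 that rises in stress, was the widest at 14.06 ± 0.78, and its relative DDIT4L lay at 14.09 ± 0.53. RPTOR, the scaffold of the complex, was the narrowest at 8.75 ± 0.19. Against the ribosomal protein score 4 of the 21 rose and 0 fell, beside 9.48% and 3.75% of all tested genes. These were LAMTOR5 with a slope of 0.58, LAMTOR4 with 0.31, the kinase RPS6KB1 with 0.30 and RRAGA with 0.23. Like the members' slopes, they are from the fit in which no gene outside the score passed without animal 5. The same 4 genes fell with the poly(A) control difference, beside 11.1% of all tested genes.

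Of the genes of termination and poly(A) binding 9 of 12 were tested, with a median SD of 0.28, and 0 passed the limma test against the ribosomal protein score. The brightest was PAIP2 at 13.71 ± 0.26 and the widest the poly(A)-binding protein PABPC1 at 10.90 ± 0.41. Of 41 symbols listed for cytosolic aminoacyl-tRNA synthetases 18 were tested, with a median SD of 0.23. The list includes AIMP1 and AIMP2, which are scaffold proteins of the multi-synthetase complex and not synthetases. Of the 18, 3 rose with the ribosomal protein score, beside 9.48% of all tested genes. These were AIMP2, SARS1 and AIMP1, with slopes of 0.44, 0.27 and 0.23, and the same 3 fell with the poly(A) control difference. Neither fit called any gene outside the ribosomal protein score when animal 5 was left out. NARS1 was the narrowest at 11.65 ± 0.08. The 14 tested stress response genes had a median SD of 0.47, and ATF4 ran from 12.48 to 15.01 around a mean of 14.46. Of the 14, 2 fell with the poly(A) control difference, beside 11.1% of all tested genes: ATF4 with a slope of -0.68 and NUPR1 with -0.64.

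Several of the members belong to the TOP mRNAs, whose 5' ends place their translation under mTORC1 together with the ribosomal proteins. All 9 measured genes of the 10 listed were tested, with a median SD of 0.31, and against the ribosomal protein score 2 rose and 1 fell, beside the 9.48% and 3.75% of all tested genes. The 60 ribosomal protein genes had a median SD of 0.40, and 38 of them rose with the score of the others. Of the 60, 38 fell with the poly(A) control difference, which moved with the score at r = -0.98 over the 10 arrays. In the limma fits without animal 5, 0 of the 6215 tested genes outside the score passed, the TOP genes included. Against the poly(A) control difference 0 of 6275 genes then passed. The part of animal 5 in the 38 that rose was not tested.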

How the data were processed

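Poly(A) RNA of 10 muscle samples was hybridised to 10 arrays of 1 colour. The authors deposited 1 linear intensity per probe set and array, and the values share a trimmed mean near 500.2 on every array. Which software summarised the probes was not given in the sources used here. Trizol extraction, oligo(dT) purification and the array maker's labelling are per the labels' protocols. Intensities were taken as log2(intensity + 16) and quantile normalized in R 4.3.3 over the 24016 probe sets left after 112 controls. Of these, 13292 carry 1 symbol in the platform annotation. The number of arrays limits the precision.

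Fits used limma 3.58.1, with Benjamini-Hochberg adjustment over all tested genes, and gene pairs used two-sided permutation tests with 100000 resamples. A gene of a list was fitted against its score without it. Values are given in full for the 5 brightest members, the 8 with the largest and the 5 with the smallest SD, those past a fit (else the smallest p), and the listed pairs. Members and lists were chosen with earlier results of these data known. EIF4E is represented by its brightest set outside the controls, at 11.05, although the 3' control set lay at 11.11. On simulated data for the ribosomal protein fit over 6271 genes, 52% of slopes of 0.5 and 90% of slopes of 1 were recovered, with 8 of 150 calls false, and 5% of independent pairs were called. The simulated noise was independent between genes and animals. These shares therefore do not cover a shift of many genes on 1 array, and say nothing of calls that rest on animal 5. Alternatives were the deposited scaling, median centring, pseudocounts of 1 and 64, no filter or one at the 75th percentile, averaged probe sets per gene, the poly(A) difference as a covariate, and each animal left out.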

Additional observations from a re-analysis of the deposited data

Results flagged for a closer look

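In 13 of the 44 tested members 1 animal lay apart from the other 9, judged by its gap to the nearest animal as a share of the whole range, against Dixon's 95% critical value for 10 samples. Chance marks about 1 in 20 genes, and 16.7% of all tested genes were marked. Animal 5 was the low animal for EIF5 with a share of 0.732, for EIF4A3 with 0.708, for EIF3E with 0.670, for EIF3K with 0.633, for EIF3I with 0.614 and for EIF3J with 0.543. It was also the low animal for EIF4G3 with 0.514, for EIF3H with 0.509 and for EEF1A1 with 0.502. It was the high animal for EIF2A with 0.511 and for EIF3CL with 0.479. The remaining 2 were EIF2B4, a subunit of the eIF2 exchange factor, with animal 6 low at 0.585, and EIF3B with animal 3 high at 0.489. Animal 5 is the one whose poly(A) control difference was 2.80, and the part of that in these 11 genes was not tested.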

How the results depend on the processing

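The count of members against the ribosomal protein score, 11, became 0 with the poly(A) control difference as covariate, 5 after median centring and 7 with the mean of probe sets, and lay between 0 (without animal 5) and 12 with each animal left out. The count of members against the stress response score, 4, became 0 with that covariate, 0 after median centring, 0 with no filter, 2 with the filter at the 75th percentile and 1 with the mean of probe sets. With each animal left out it lay between 0 and 6, being 0 without animal 5, 1 without animals 2, 8 or 9, and 2 without animal 10. The count of members against the poly(A) control difference, 12, lay between 0 and 12 with each animal left out, being 0 without animal 5 and 7 without animal 4. The count of pairs of members past the test, 0, became 1 on the deposited scaling. The count of tested members with SD over 0.5, 4, became 8 of 48 with no filter, which adds the 4 dim genes, and lay between 1 and 6 with each animal left out. The median SD of tested members, 0.31, lay between 0.22 and 0.32 with each animal left out. For the 5 brightest members the highest SD under other settings with all 10 animals was 0.24 for EIF1 and 0.30 for EEF1G. It was 0.34 for EIF4A2, 0.34 for EEF2 and 0.26 for EEF1B2. The covariate moved with the ribosomal protein score at r = -0.98 and with the stress response score at r = -0.78 over the 10 arrays, so the first pair can hardly be told apart in a fit and that count of 0 bears on neither. The causes were not tested. No paired analysis was possible because there is 1 group. Alternatives added after seeing the data were the SD of each member without animal 5, slopes under each scaling, and the 3' control set for EIF4E, with an SD of 0.39 against 0.35. With 10 arrays of 1 group and no traits, no difference between groups could be read.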

Other observations

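EEF1A2 and EIF4EBP1 were followed further, a choice made after their values were seen, because their spread did not rest on animal 5. With EEF1A2 as the covariate over the other 6270 tested genes, 0 genes passed by limma and 356 had an unadjusted p under 0.05. The smallest p was that of COXP1, with a slope of 0.87 per SD of EEF1A2 and a limma adjusted p of 0.177.

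With EIF4EBP1 as the covariate 0 genes passed by limma and 514 had an unadjusted p under 0.05, 8.20% of those tested. The smallest were MEG3, an imprinted noncoding RNA, with a slope of -0.65, and BGN, the matrix proteoglycan biglycan, with -0.61, both at a limma adjusted p of 0.0942. The collagen gene COL1A2 had a slope of -0.83 and a limma adjusted p of 0.123. With each animal left out in turn 0 genes passed for either gene.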
